A study of Homo sapiens with 6 samples.

Results

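Ewing tumors are driven by a chromosomal fusion that joins a FET gene to an ETS gene, most often EWSR1 on chromosome 22 to FLI1 on chromosome 11. FET genes, such as EWSR1 and TAF15, encode RNA-binding proteins whose low-complexity N terminus activates transcription when it is attached to a DNA-binding domain. ETS genes encode transcription factors that bind DNA at a GGAA core, and the fusion protein binds single GGAA sites and GGAA repeats. The fusion transcript starts at the EWSR1 promoter and ends in FLI1 sequence, and STEAP1, the gene silenced here, is known as a gene that the fusion induces.

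The genes described are the fusion partners EWSR1 and FLI1, the FET gene TAF15, the ETS gene ERG, which can replace FLI1 in the fusion, and the ETS genes ETS1, ETS2, ETV1, ETV6 and ELF1. They were chosen by symbol: a gene is represented by the probe set that the platform annotation gives to that symbol alone. This holds for 8 of the 9 genes, each with 1 probe set, out of 18417 genes measured. The 1 probe set annotated to ETV6 carries a second symbol, INO80D, so no value is given for ETV6. A probe set cannot tell the fusion transcript from normal EWSR1 or FLI1 RNA.

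RNA came from the established cell lines A673 and SK-N-MC, both derived from Ewing tumors, on 3 Affymetrix arrays each. In each line, 1 array held cells with siRNA 2 against STEAP1, 1 array cells with siRNA 3 against STEAP1, and 1 array cells with a non-silencing control siRNA. All cells, controls included, received siRNA at 5 nM for 48 h. The arrays of a line had different siRNAs and no array was repeated, so a p-value here rests on the spread among these arrays, which may otherwise be technical and, except where siRNA 2 and siRNA 3 have terms of their own, includes any difference between them. The number of arrays limits the precision.

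STEAP1 itself checks the labels: its log2 intensity was 4.53 and 4.59 in the A673 siRNA arrays against 6.23 in the A673 control array. In SK-N-MC it was 4.17 and 4.73 with siRNA against 7.15 in the control array. Of 8 Ewing tumor marker genes fixed for this purpose, 7 were measured. All 7 lay above the array median on all 6 arrays, beside 44.2% of all genes. PTPRC, which marks blood cells and with them a source of normal FLI1, ERG and ETS1, lay at 1.01 to 1.23 on the log2 scale, below the array medians of 3.21 to 3.24. Of 7 haematopoietic markers measured, LCP1 alone passed the limma test between the lines described below. It was at 4.09 to 4.78 in A673 and 8.25 to 8.54 in SK-N-MC. The other markers of this list lay below the array median on every array. The summed intensity of the list was 44.2 to 55.4 in A673 and 330.2 to 398.0 in SK-N-MC. In SK-N-MC most of this sum was LCP1, so the sum does not show a difference across the list. Of 7 endothelial markers, a class where FLI1 and ERG are also high, 1 lay above the array median (CLDN5), and the summed intensity was 28.4 to 29.4 in A673 and 28.0 to 32.2 in SK-N-MC. The part of these lists in the results below was not tested.

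**Figure D1:**
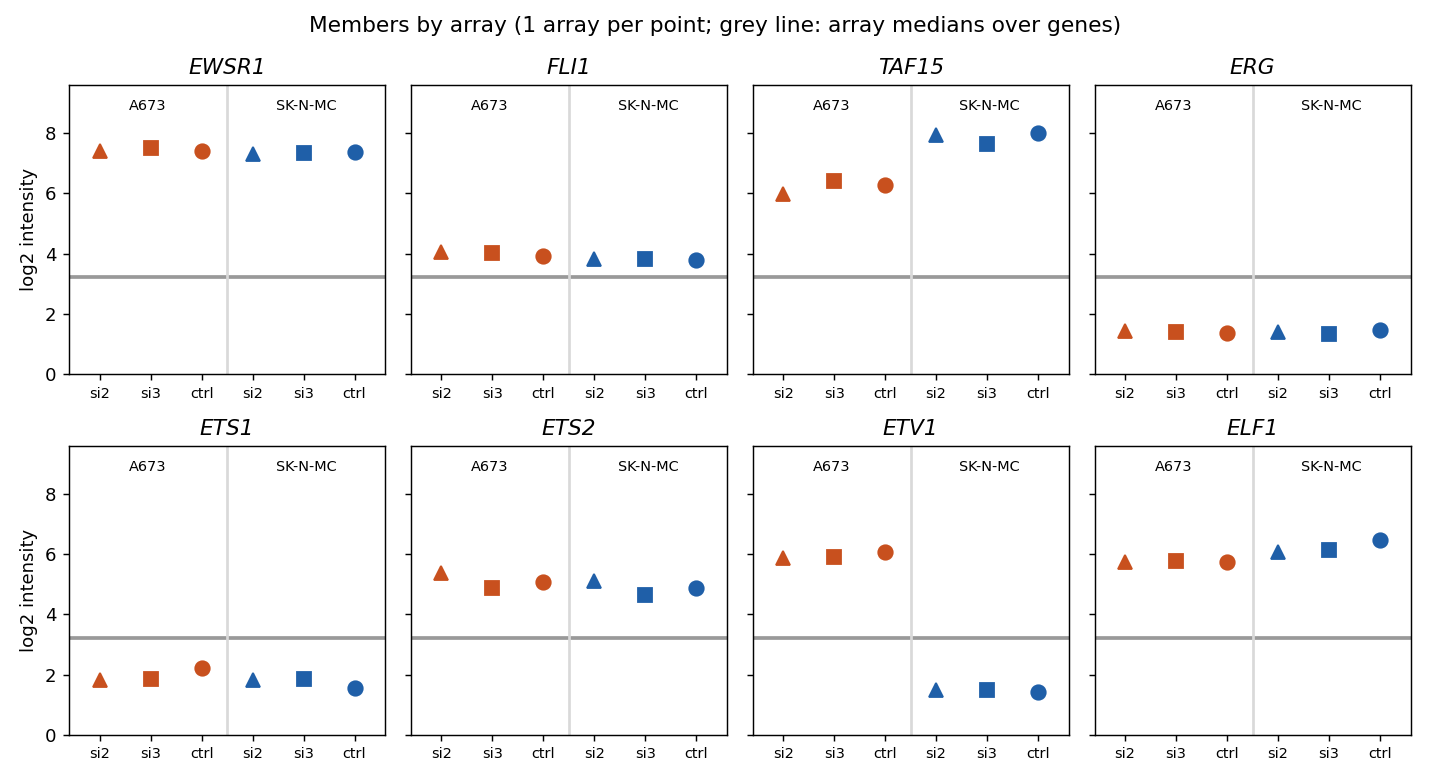
Log2 intensity (vertical axis) of each gene on each of the 6 arrays (horizontal axis; si2 and si3, siRNA 2 and 3 against STEAP1; ctrl, control), with A673 in orange and SK-N-MC in blue. Every point is 1 array, and the grey line marks the array medians over all genes, 3.21 to 3.24. ETV1 stands near 6 in A673 and below 1.5 in SK-N-MC, TAF15 is lower in A673, and ERG and ETS1 lie below the array median throughout.

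The first comparison sets A673 against SK-N-MC, with silencing kept as a term in the limma fit. Of the 8 genes, ETV1 was higher in A673, TAF15 and ELF1 were lower in A673, and the other 5, both fusion partners among them, did not pass an adjusted p of 0.05. The 3 calls make 37.5% of the 8 genes, beside 24.8% of all 18417 genes (13.5% higher and 11.4% lower in A673). With so few genes the share says little about the group. The arrays of the lines did not overlap for 5 of the 8 genes, beside 37.9% of all genes.

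EWSR1 gives the fusion its promoter and its activating N terminus. Its log2 intensity was 7.40, 7.50 and 7.40 in A673 (siRNA 2, siRNA 3, control) and 7.31, 7.35 and 7.37 in SK-N-MC. All A673 arrays lay above all SK-N-MC arrays, by as little as 0.035 between the nearest arrays. The mean was 7.43 ± 0.05 in A673 and 7.34 ± 0.03 in SK-N-MC (SD, n = 3 each). The log2 difference of A673 minus SK-N-MC was 0.09 (SE 0.10, limma adjusted p = 0.616), with a 95% interval of the fold from 0.905 to 1.25.

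FLI1 gives the fusion its ETS DNA-binding domain. Its log2 intensity was 4.04, 4.03 and 3.92 in A673 and 3.81, 3.83 and 3.78 in SK-N-MC, in the same order of arrays. The lines did not overlap, and the difference of 0.19 (SE 0.10) had a limma adjusted p of 0.232 and a 95% interval of the fold from 0.973 to 1.34. FLI1 lay less than 1 log2 unit above the array median on all 6 arrays, in lines where its 3′ part is known to be transcribed within the fusion.

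The start of EWSR1 is shown because it is also the start of the fusion transcript. In the RefSeq promoter table (GRCh38.p14), the 250 bases before the EWSR1 start are chr22:29268018-29268267, plus strand, with each GGAA or its reverse complement TTCC in capitals:
EWSR1: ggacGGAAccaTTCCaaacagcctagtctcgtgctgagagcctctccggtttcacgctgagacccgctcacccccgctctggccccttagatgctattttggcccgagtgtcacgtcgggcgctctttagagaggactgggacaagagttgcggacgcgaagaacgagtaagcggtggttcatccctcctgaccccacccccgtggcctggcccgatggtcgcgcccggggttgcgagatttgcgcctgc
The window holds 2 cores, and 76.7% of 27305 promoter windows of this length hold as many or more. The cores begin 246 and 239 bases before the start, at the far end of the window.

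ETV1 belongs to the PEA3 subfamily of ETS factors, with ETV4 and ETV5, and is itself a rare EWSR1 fusion partner in Ewing tumors. Its log2 intensity was 5.88, 5.91 and 6.06 in A673 and 1.49, 1.48 and 1.41 in SK-N-MC. The nearest arrays of the lines were 4.38 log2 units apart, and the SK-N-MC values lay below the array median. The log2 difference was 4.49 (SE 0.11, a 22.4-fold higher intensity in A673, 95% interval of the fold 18.9 to 26.6, limma adjusted p = 1.93e-07). No more than 0.109% of all genes had a larger absolute difference between the lines. Since SK-N-MC stood near the dim end and no detection calls were used, the size depends on how low intensities are treated: after adding 8 intensity units the log2 difference was 2.70, with a limma adjusted p of 8.81e-05. Over all alternatives except the limit on mean log2, which left ETV1 out, the adjusted p was 8.81e-05 or lower.

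The ETV1 start is shown because this gene differed most among the 8. In the same table the 250 bases before it are chr7:13990703-13990952, minus strand, marked in the same way:
ETV1: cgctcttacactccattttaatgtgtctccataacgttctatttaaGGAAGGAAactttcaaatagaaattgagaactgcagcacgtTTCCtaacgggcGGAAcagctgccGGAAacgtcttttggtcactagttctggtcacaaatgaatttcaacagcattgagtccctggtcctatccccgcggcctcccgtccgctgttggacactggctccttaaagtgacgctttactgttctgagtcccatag
This window holds 5 cores, a number that 18.8% of the promoter windows reach, and 2 of them form GGAAGGAA, a pair of cores side by side, which with its reverse complement TTCCTTCC occurs in 2.99% of windows. Among the 6 of 9 genes with a window in the table (EWSR1, ERG, ETS2, ETV1, ETV6 and ELF1), ETV1 alone has this pair, and ELF1 has no core. CCGGAAGT and its reverse complement ACTTCCGG, which contain the core in a longer ETS site, occur in 3.64% of windows and in 0 of these 6. These matches describe the letters of 1 annotated start per gene, and other starts were not searched.

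TAF15 encodes a FET protein that associates with the general transcription factor TFIID. Its log2 intensity was 5.98, 6.42 and 6.29 in A673 and 7.93, 7.63 and 8.02 in SK-N-MC. The nearest arrays were 1.21 log2 units apart, against ranges within a line of 5.98 to 6.42 and 7.63 to 8.02. The log2 difference was -1.63 (SE 0.15, limma adjusted p = 1.27e-04): A673 had 0.323 times the intensity of SK-N-MC, with a 95% interval from 0.254 to 0.410.

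ELF1 encodes a broadly expressed ETS factor known from blood and immune cells. Its log2 intensity was 5.72, 5.79 and 5.74 in A673 and 6.08, 6.12 and 6.46 in SK-N-MC. The A673 arrays lay close together, and the SK-N-MC control array stood above both siRNA arrays of its line. The log2 difference was -0.47 (SE 0.12, 0.722 times the intensity of SK-N-MC, limma adjusted p = 0.0203). This call was lost when either control array was left out. The difference then came from the siRNA arrays alone, at -0.34 with a limma adjusted p of 0.136. The siRNA arrays still did not overlap between the lines, and this fit rested on fewer arrays. The call was also lost without the A673 siRNA 2 array, at -0.49 (adjusted p = 0.0578), and its adjusted p over all alternatives ranged from 0.00737 to 0.136.

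ERG, ETS1 and ETS2 showed no separation of the lines. ERG, which is also active in endothelium, was at 1.44, 1.39 and 1.37 in A673 and 1.41, 1.34 and 1.47 in SK-N-MC on the log2 scale. ETS1, a founding member of the family, was at 1.83, 1.86 and 2.20 in A673 and 1.83, 1.87 and 1.57 in SK-N-MC. Both were below the array median on all 6 arrays, where a difference may go unseen. ETS2, a relative of ETS1, was at 5.39, 4.87 and 5.07 in A673 and 5.12, 4.65 and 4.88 in SK-N-MC. The log2 differences were -0.01 (SE 0.10) for ERG, 0.21 (SE 0.14) for ETS1 and 0.23 (SE 0.17) for ETS2, with limma adjusted p-values of 0.982, 0.376 and 0.428. The sign for ERG was reversed by median centring. In the RefSeq gene table FLI1 and ETS1 are neighbours on chromosome 11 and ERG and ETS2 on chromosome 21, with 0 protein-coding genes between the genes of each pair.

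Of 21 other ETS genes, all measured, 4 were higher and 1 lower in A673, which is 23.8% beside 24.8% of all genes. ETV5 (log2 difference 2.01, SE 0.21), ELK3, an ETS factor of the ternary complex group (1.17, SE 0.20), and ETV4 (1.09, SE 0.11) were the largest on the higher side. ETV3, a repressor and the fourth call, stood at 0.62 and was named after its value was seen. ELK1, a partner of serum response factor, was lower in A673 (-0.72, SE 0.15, limma adjusted p = 0.00869). ETV5 was at 5.43, 4.68 and 5.39 in A673 and 3.12, 2.68 and 3.67 in SK-N-MC, with both SK-N-MC siRNA arrays below the array median. ETV4 was at 3.10, 3.06 and 3.26 in A673 and 1.96, 2.10 and 2.08 in SK-N-MC, and lay above the array median on 1 of 6 arrays, the A673 control array. All 3 PEA3 genes were thus called higher in A673, a grouping made after the values were seen. The median difference of the 21 genes was 0.03, beside -0.02 over all genes.

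**Figure D2:**
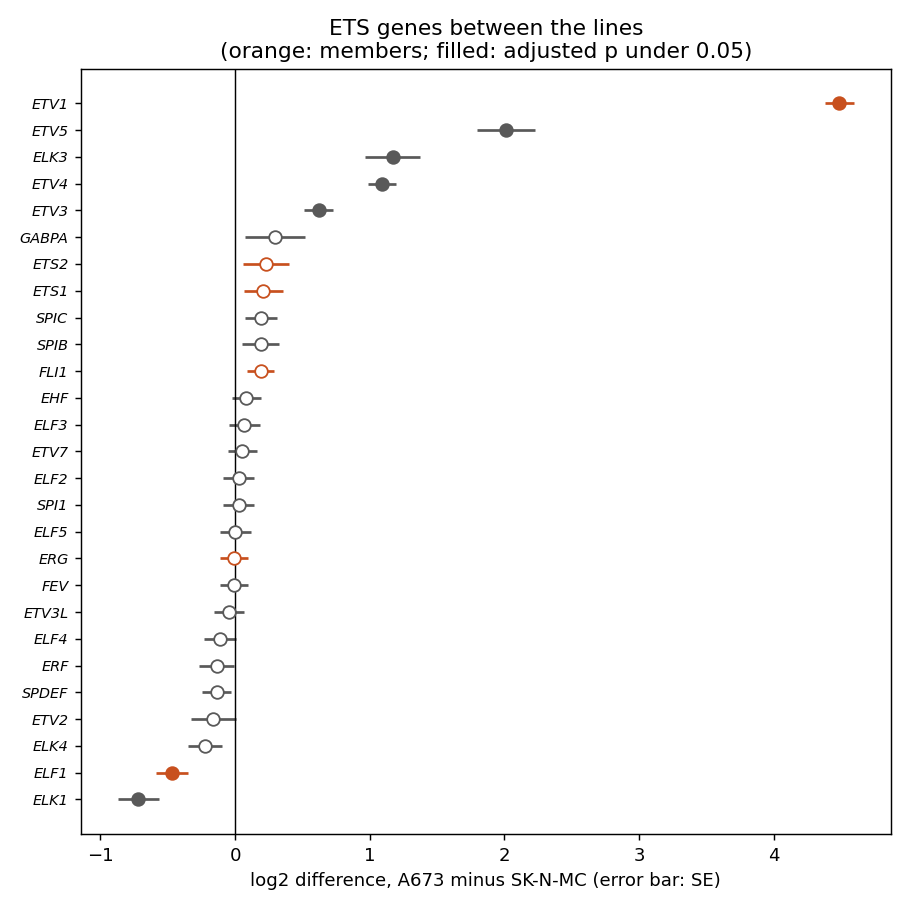
Log2 difference of A673 minus SK-N-MC (horizontal axis) with its SE for 27 ETS genes (vertical axis, sorted); the ETS genes among the 8 described are orange and other ETS genes grey, and filled points passed a limma adjusted p of 0.05. ETV1 lies far to the right at 4.49, followed by ETV5 at 2.01, while ELF1 and ELK1 are the called genes on the negative side.

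Genes known to work with the FET proteins or the fusion were read against the same 24.8% of all genes called between the lines (13.5% higher and 11.4% lower in A673). That share includes dim genes: 44.2% of all genes lay above the array median on all 6 arrays. The lists were not compared with genes of like intensity. Of 15 measured FET protein partners, 3 were higher and 3 lower in A673, which is 40% beside 24.8% of all genes. The higher ones were PRMT1, an arginine methyltransferase that modifies FET proteins (0.71), POLR2A, the large subunit of RNA polymerase II (0.62), and TNPO1, the import receptor of FET proteins (0.39). TBP, the TATA-binding subunit of TFIID (-1.28, SE 0.10), SNRPC of the U1 splicing particle (-0.93) and PARP1 (-0.51) were lower. TBP was at 5.87, 5.89 and 5.77 in A673 and 7.11, 7.09 and 7.16 in SK-N-MC, the same direction as TAF15.

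Of 17 measured fusion cofactors, 1 was higher in A673 and 8 were lower, which is 52.9% beside 24.8% of all genes, with a median difference of -0.29 beside -0.02 over all genes. GABPB1, the partner of the ETS factor GABPA, was higher (0.84). RUNX3 (-1.33, SE 0.15), SMARCC1, a subunit of the BAF chromatin remodeller (-0.82), and the deacetylase gene HDAC2 (-0.79) led the lower side. Of 21 measured genes known as fusion-activated, 7 were higher and 6 lower in A673, which is 61.9% beside 24.8% of all genes, led by CAV1 (2.49), CCND1 (1.78) and DKK2 (0.59) and, on the lower side, IGF1 (-1.38), SOX6 (-1.32) and E2F3 (-0.96). Of 12 measured genes listed as fusion-repressed, 3 were higher and 1 lower in A673, which is 33.3% beside 24.8% of all genes. They were TGFBR2 (2.55), TNC (1.05), PHLDA1 (0.67) and FOXO1 (-0.63). The label repressed comes from the list and was not tested. The median differences of the activated and repressed lists were -0.01 and -0.05.

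**Figure D3:**
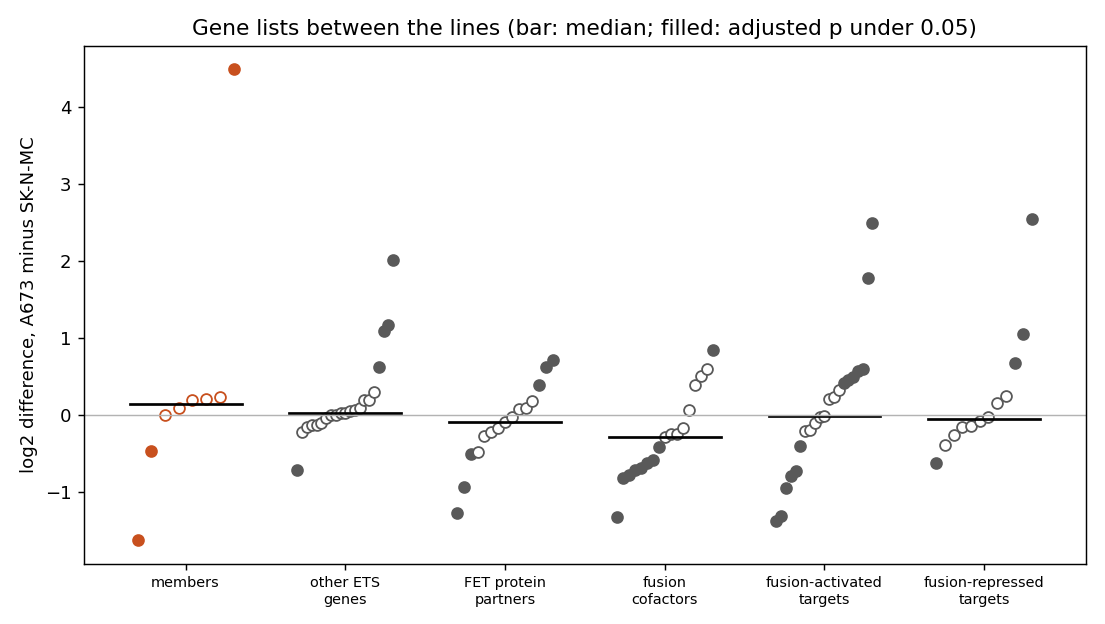
Log2 difference of A673 minus SK-N-MC (vertical axis) for each gene of 6 lists (horizontal axis; "members" are the 8 genes described), with the list median as a bar and filled points for a limma adjusted p under 0.05. The cofactor list has the lowest median, -0.29, and the activated and repressed targets spread to both sides of 0.

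The next comparison asks whether silencing STEAP1, itself a fusion target, went with a change in the fusion partners or their relatives in both lines. None of the 8 genes passed: limma called 0 of 8, beside 0% of all 18417 genes, and at an unadjusted p under 0.05 there were 0 of 8, beside 4.63% of all genes. Every siRNA array was within 1.5-fold of its control array for all 8 genes, beside 88% of all genes. Of these 8, ERG, ETS1 and, in SK-N-MC, ETV1 lay below the array median, where a change may go unseen. The differences of siRNA minus control across lines ranged from -0.17 for ELF1 to 0.08 for FLI1, and STEAP1 stood at -2.18 (SE 0.24, adjusted p = 0.293). The 2 siRNA arrays of a line share 1 control array, so they are not independent of each other.

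EWSR1 differed by 0.01 across lines (SE 0.11, limma adjusted p = 0.999), with a 95% interval of the fold from 0.844 to 1.19. Per array, its log2 differences from the control array of its line were -0.001 and 0.094 in A673 and -0.058 and -0.015 in SK-N-MC, for siRNA 2 and siRNA 3. FLI1 differed by 0.08 (SE 0.11, adjusted p = 0.989), with a 95% interval from 0.892 to 1.25. Its per-array differences were 0.119 and 0.110 in A673 and 0.033 and 0.052 in SK-N-MC, which made it the 1 gene of the 8 that was higher in 4 of 4 siRNA arrays, beside 10.6% of all genes. A 1.5-fold change in the intensity of these probe sets, taken across the lines, lies outside both intervals. Smaller changes within the intervals could not be told from none. The probe sets do not separate fusion from normal RNA, so the intervals set no bound on the fusion transcript alone. FLI1 lay at 3.78 to 4.04 against array medians of 3.21 to 3.24, where a change may go unseen.

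TAF15 differed by -0.16 (SE 0.16) across lines, with log2 differences of -0.31 and 0.14 in A673 and -0.09 and -0.39 in SK-N-MC, so it was lower in 3 of 4 siRNA arrays. ETS2 split by siRNA: it was above the control array with siRNA 2 (0.31 in A673 and 0.24 in SK-N-MC) and below it with siRNA 3 (-0.20 and -0.22). ELF1 was near its control array in A673, at -0.01 and 0.05, and below it in SK-N-MC, at -0.39 and -0.34. ETS1, ETV1 and ERG had one sign in both A673 siRNA arrays and the other in both SK-N-MC siRNA arrays. These are 3 of the 8 genes, beside 20% of all genes. For ETS1 the values were -0.37 and -0.34 in A673 against 0.27 and 0.30 in SK-N-MC.

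**Figure D4:**
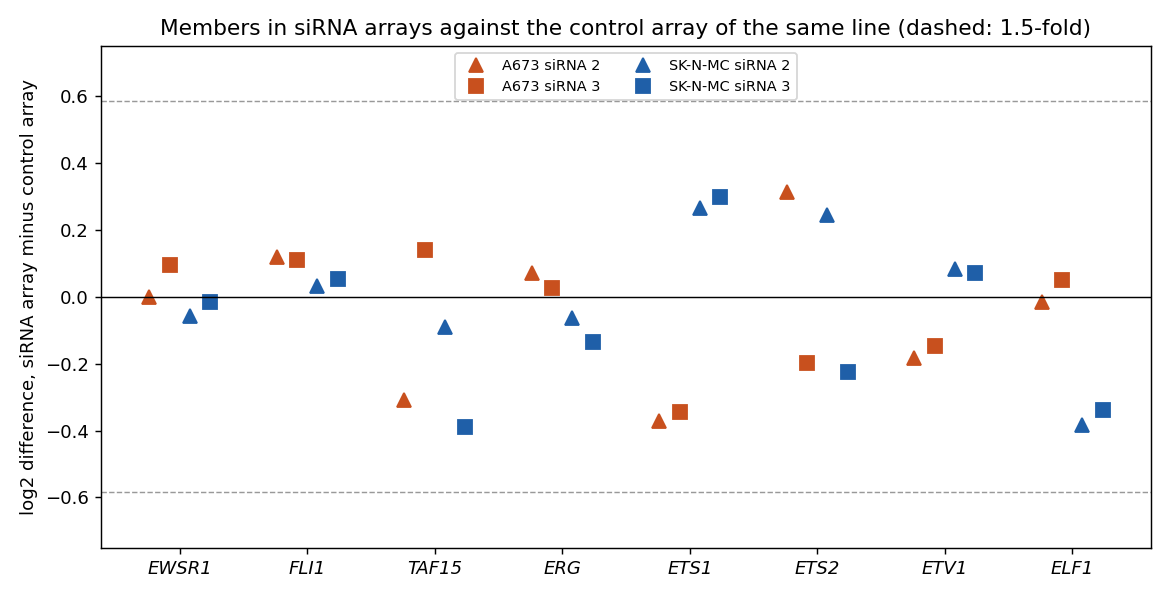
Log2 difference of each siRNA array minus the control array of its line (vertical axis) for the 8 genes (horizontal axis), with A673 in orange, SK-N-MC in blue, triangles for siRNA 2 and squares for siRNA 3; dashed lines mark 1.5-fold. All points lie within the dashed lines, FLI1 is the gene with 4 points above 0, and ETS2 separates the triangles from the squares.

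Whether the response differed between the lines was tested directly, as the A673 response minus the SK-N-MC response. limma called 0 of the 8 genes, beside 0% of all genes, and at an unadjusted p under 0.05 there was 1 of 8, beside 3.86% of all genes. That gene was ETS1 (-0.64, SE 0.23, unadjusted p = 0.0261, adjusted p = 1.000), and its value came from the control arrays, which stood at 2.20 in A673 and 1.57 in SK-N-MC while the siRNA arrays of both lines lay between 1.83 and 1.87. ELF1 had a difference of 0.38 (SE 0.23) and EWSR1 and FLI1 of 0.08 (SE 0.23) and 0.07 (SE 0.23), and the sign for EWSR1 was reversed by a second quantile normalization. The fit had 2 residual degrees of freedom.

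The SK-N-MC control array, against which the SK-N-MC response of ELF1 was taken, had the highest values of interferon response genes. The SK-N-MC siRNA arrays also differed from each other in these genes. The mean log2 of 14 measured genes of that list was 2.39 and 2.41 in the A673 siRNA arrays against 2.51 in the A673 control array. In SK-N-MC it was 3.35 and 4.96 with siRNA against 6.60 in the control array. Their summed intensity was 96.3 and 97.5 with siRNA against 112.1 in the control array of A673, and 384 and 1571 with siRNA against 3037 in the control array of SK-N-MC. ELF1 differed by -0.05 (siRNA 2 minus siRNA 3) between the SK-N-MC siRNA arrays. The part of the interferon genes in the ELF1 values was not tested. ETV7, an ETS gene known to be induced by interferon, was at 1.75 and 1.71 with siRNA and 1.84 in the control array of SK-N-MC. These values lay below the array median, where a change may go unseen.

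A further comparison sets siRNA 2 against siRNA 3 in both lines. limma called 0 of the 8 genes, beside 0% of all genes, and at an unadjusted p under 0.05 there was 1 of 8, beside 6.67% of all genes. That gene was ETS2, higher with siRNA 2 than with siRNA 3 by 0.51 in A673 and 0.47 in SK-N-MC (log2 difference 0.49, SE 0.13, unadjusted p = 0.00606, adjusted p = 0.586). Adjusted over all genes the difference did not pass. The other 7 differed by -0.07 to 0.06, although TAF15 alone differed in opposite directions by more than that, at -0.45 in A673 and 0.30 in SK-N-MC.

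Among the wider lists, silencing also gave 0 calls. Of the 21 other ETS genes 18 had a negative difference, with a median of -0.11 beside -0.01 over all genes. The count was 18 after median centring and after a second quantile normalization. Of these, ETV3L, ETV7, ELF3, ELF5, EHF, SPI1, SPIB and SPIC lay below the array median on every array, as did ETV2 and SPDEF, which were positive. The size of such dim differences is uncertain. All genes share the same control array in each line, so their signs are not independent. The share of all genes with a negative difference was not set beside this list. The count of 18 is therefore not read as a result about these genes. The smallest unadjusted p-values in this list were those of ETV5 (-0.56, SE 0.23) and ELK4, a ternary complex factor (-0.31, SE 0.13), both with a limma adjusted p of 0.989. Among FET protein partners they were those of TAF5, a TFIID subunit (-0.32), and TNPO1 (-0.22). Among cofactors they were those of FOS, an AP-1 subunit (-0.48), and RUNX2 (-0.25). Among activated targets they were those of PPP1R1A (-0.41) and IL1RAP (0.37), and among repressed targets those of TGFBR2 (-0.45) and THBS1 (-0.43). None of these had an adjusted p below 0.989.

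The genes whose log2 values ran most like each member over the 6 arrays were taken from those whose log2 values averaged 4 or more. The 6 arrays hold only 2 lines, so these values are a description. FLI1 ran most like HSPA9 (Pearson r = 0.994), ODF2 (0.994) and STT3B (0.992), and EWSR1 most like METTL4 (0.986), TGIF1 (0.986) and LTBP3 (0.985). For TAF15 the closest gene was HNRNPH1 (0.998), a splicing factor on the list of FET protein partners, although its line difference was smaller, at -0.27 and not called. For ETV1 it was PFKP (0.999), for ELF1 NBR2 (0.996), for ERG ASF1A (0.980), for ETS2 PRR13 (0.976) and for ETS1 DMAP1 (0.940). Each gene was picked as the highest r among 7412 or 7413 genes, so a high r was to be found without any relation. ERG and ETS1 lay below the array median, where likeness is uncertain. The number of genes with r over 0.95 was 841 for ETV1 (11.3% of those compared) and 349 for TAF15 (4.71%). It was 197 for FLI1 (2.66%), 38 for EWSR1 (0.513%) and 0 for ETS1.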

How the data were processed

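The authors deposited linear-scale intensities. The submitters' processing notes name RMA and Affymetrix Expression Console 1.1, and how the summaries were returned to a linear scale was not stated. Of 33297 probe sets, 19460 carry 1 gene symbol in the platform annotation. Symbols were matched to RefSeq by gene identifier for 19429, and the brightest probe set of a gene was kept, giving 18417 genes. Log2 of each intensity was tested with limma 3.58.1 in R 4.3.3 (lmFit, eBayes, two-sided, Benjamini-Hochberg over all genes, adjusted p under 0.05). Silencing and the line difference came from a fit with line and silencing terms (3 residual degrees of freedom), the difference of responses from 4 group means, and the siRNA difference from line and siRNA terms (2 residual degrees of freedom each). The fits were tested on simulated data with planted differences of 2 log2 units. That does not show how well smaller differences would be found.

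The genes and lists were chosen with earlier results of these data known. A gene of the FET protein partner list is not reported here. The naming rule takes the 8 genes and, of each list, the 3 largest calls between lines in each direction and the 2 smallest p-values for silencing. It also takes the most similar genes by Pearson r, 3 each for EWSR1 and FLI1 and 1 for each other gene. Promoter sequences are RefSeq's (GRCh38.p14). Alternatives changed the normalization, the handling of dim values, the probe sets, the fit and the arrays used. No replicate number was used as a block in the fits above, since the numbers 2 and 3 of the siRNA arrays were taken to name the siRNA. The A673 control array also carries the number 2 in its title, and that number was not used in any fit.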

Additional observations from a re-analysis of the deposited data

Results flagged for a closer look

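Of the 8 genes, 3 moved one way in both siRNA arrays of A673 and the opposite way in both siRNA arrays of SK-N-MC, which is why they are listed; 20% of all genes did so. As the A673 response minus the SK-N-MC response, the log2 difference was -0.64 for ETS1, -0.24 for ETV1 and 0.15 for ERG. The test of the difference itself (limma) gave an adjusted p of 1.000 for each. ETS1 and ERG, and ETV1 in SK-N-MC, lay below the array median. ETV1 was at 5.88 and 5.91 in the A673 siRNA arrays against 6.06 in the A673 control array. In SK-N-MC it was at 1.49 and 1.48 with siRNA against 1.41 in the control array.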

How the results depend on the processing

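Calls of the 8 genes between the lines numbered 3 under every alternative that kept all arrays, except that the limit on mean log2 (at least 4) left ETV1, FLI1, ERG and ETS1 untested and gave 2. With single arrays left out they numbered 2 to 3, the lost call being ELF1. In the other comparisons the count was 0 throughout; without a control array the difference of responses could not be fitted. Over all genes, the calls with single arrays left out ranged from 0 to 1 for silencing (the 1 without the A673 control array) and from 0 to 26 for the difference of responses, which gave 1 call with all probe sets tested. The 26 came without the SK-N-MC siRNA 3 array, where only the A673 siRNA arrays give a spread. A second quantile normalization turned the response differences of EWSR1 (-0.021) and ETS2 (-0.046), and median centring the line difference of ERG (0.0059). With single arrays left out, these differences changed sign. For silencing the ranges were -0.036 to 0.047 for EWSR1, -0.098 to 0.049 for ERG, -0.36 to 0.28 for ETS1, -0.080 to 0.14 for ETS2, -0.16 to 0.078 for ETV1 and -0.36 to 0.017 for ELF1. For the difference of responses they were -0.069 to 0.38 for TAF15 and -0.21 to 0.30 for ETS2. Between siRNAs they were -0.39 to 0.25 for TAF15, -0.034 to 0.024 for FLI1, -0.19 to 0.13 for ETS1, -0.090 to 0.067 for ETV1 and -0.16 to 0.046 for ELF1. Between lines they were -0.041 to 0.043 for ERG and -0.0023 to 0.28 for ETS1. None of these was a call, and the cause was not tested. The siRNA number as a replicate block left 3 of the 8 genes called between the lines (4720 of all genes) and 0 elsewhere. Arrays of the lines share only the siRNA's number, and the siRNA 2 minus siRNA 3 difference correlated between the lines at 0.0663 across all genes and 0.299 across the 2391 with a mean log2 of at least 6. Without detection calls, differences in genes below the array median (ERG, ETS1, and ETV1 in SK-N-MC) have uncertain size.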

Other observations

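ETV5, the PEA3 relative of ETV1, differed between the siRNAs like ETS2. Its log2 intensity was 5.43 with siRNA 2 and 4.68 with siRNA 3 against 5.39 in the control array of A673, and 3.12 and 2.68 against 3.67 in SK-N-MC. The difference of siRNA 2 minus siRNA 3 was 0.59 (SE 0.17, unadjusted p = 0.00776, limma adjusted p = 0.586), so it did not pass over all genes, and ETV5 was singled out here after its values were seen.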
